A study of Mus musculus with 4 samples.

Results

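Fatty acids do not travel free in a cell. They are bound by small fatty acid binding proteins, activated to acyl-CoA by acyl-CoA synthetases, and passed on by lipid carriers to oxidation, membrane synthesis or signalling lipids. In the late embryonic cortex the radial glia, the progenitors that turn from making neurons to making glia, are known for brain lipid binding protein, the product of Fabp7. The genes described here are 10 listed fatty acid binding proteins, acyl-CoA synthetases and lipid carriers: Fabp7, Fabp5, Fabp3, Acsbg1, Acsl1, Acsl3, Acsl4, Acsl6, Scp2 and Abhd4. A gene was taken where a feature of the array (a set of probes summarised to 1 value) carries its symbol alone, and where it had several such features the one with the highest mean over the 4 arrays was used. This found 8 of the 10, out of 19938 named genes. The only feature for Acsl3 carries a second symbol, Utp14b, and no feature used here carries Acsl1, so neither was analysed. The features were chosen by that mean, the only measured value the rule uses. It set no threshold on a difference, but the genes were listed with the results of this comparison known, so the values below describe them and are not independent evidence.

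RNA came from dorsal cortex at E18.5, late in gestation, with 1 single-colour array per sample. The 2 controls are Mek1fl/wt, Mek2-/-, and the 2 mutants are Mek1fl/fl, Mek2-/- with NestinCre, a transgene that drives Cre recombinase in neural progenitors and the cells they give rise to. Both groups therefore lack Mek2, although the design text names the controls WT, and the comparison asks what differs when the upstream ERK kinase MEK1 is lost as well. Only the mutants are labelled with NestinCre, so Cre and loss of Mek1 cannot be told apart. Nothing in the labels gives a litter or a batch, or says that arrays come from separate embryos, so the p-values measure the spread between these samples. Xist and Y-linked genes put 1 female and 1 male sample in each group: control 1 and mutant 2 are female, control 2 and mutant 1 male. Over the 13956 genes tested, the root mean square distance (log2) was 0.149 between controls and 0.191 between mutants. Mutant 2 lay at 0.178 and 0.192 from the controls, about as far as from mutant 1, and mutant 1 lay at 0.221 and 0.230. Of the choroid plexus markers, Ttr was at 9.15 on control 2 and between 6.501 and 7.17 on the other arrays. Map2k1, the gene for MEK1, was at 8.80 ± 0.06 in controls and 8.61 ± 0.16 in mutants (SD, n = 2 each; limma adjusted p = 0.469), and how its probes lie to the floxed part was not known here, so this checks nothing. Tbr1 and Bcl11b, transcription factors of cortical projection neurons, were at mean log2 levels of 10.99 and 9.55 in controls.

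The measured genes divided into 4 that fell and 4 that did not pass the test. Fabp7 and Acsbg1, the members best known from radial glia and astrocytes, fell about equally, 3.04-fold and 3.25-fold. Abhd4 fell 2.22-fold and Scp2 fell 1.53-fold. The other fatty acid binding proteins, Fabp5 and Fabp3, and the long-chain acyl-CoA synthetases Acsl4 and Acsl6 had slightly higher means in the mutants, none of them past the threshold. The test is limma across all genes, with Benjamini-Hochberg adjustment, and calls were made below an adjusted p of 0.05. In this fit 1.01% of all genes tested were called lower and 0.0143% higher. All 8 members were bright enough to be tested. Their median difference was -0.28, beside 0.0053 over all genes tested. The median of the members falls between Scp2 (-0.62) and Fabp5 (0.06), so it is not a shift that all 8 share. A bulk sample cannot tell fewer cells of a type from less RNA per cell.

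**Figure D1:**
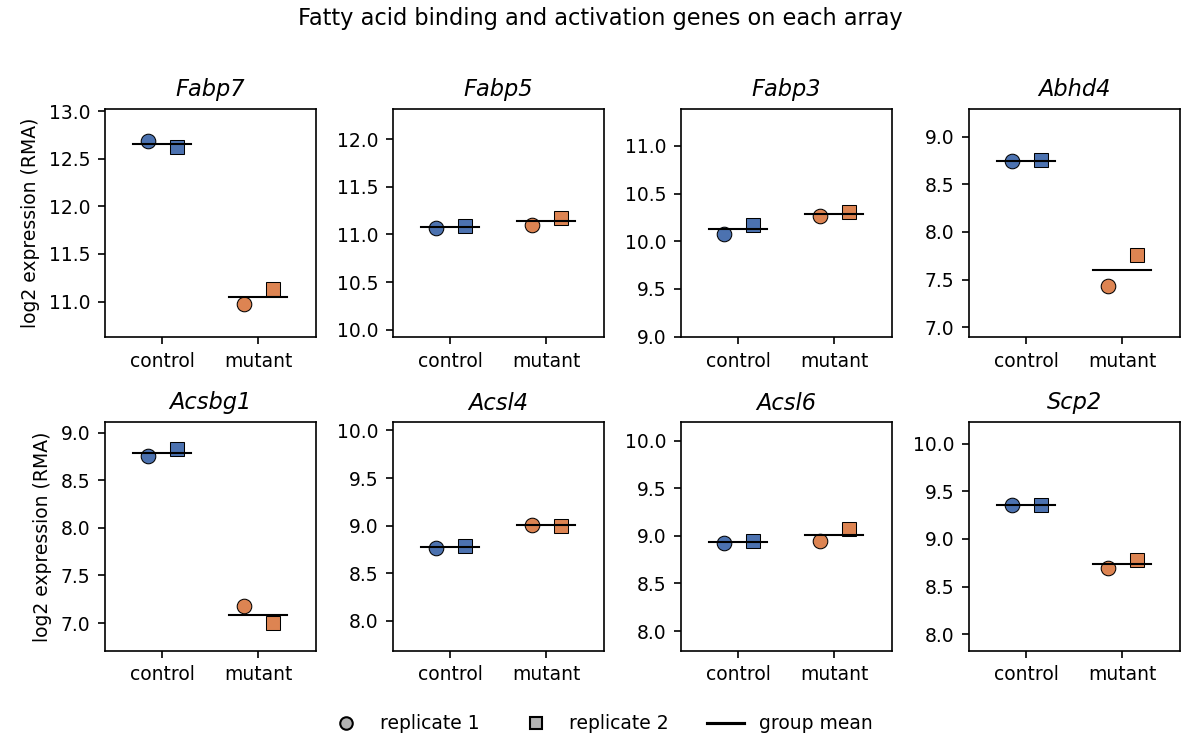
Log2 expression of the 8 measured genes on each array (vertical axis, RMA values, the same span of log2 units in each panel) in control and mutant samples. Circles are replicate 1, squares replicate 2 and bars the group means. Fabp7, Acsbg1, Abhd4 and Scp2 lie lower on both mutant arrays, while the mutant arrays of Fabp5, Fabp3, Acsl4 and Acsl6 lie at or slightly above the control arrays.

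For the 4 members that fell, the 250 bases before an annotated start (the first of 2 for Abhd4) are shown, to set what they share beside what they do not. They are from RefSeq on build GRCm38.p6, written 5′ to 3′ on the gene's strand, and capitals mark every match to the motifs searched. RefSeq promoters were at hand for 9 of the 10 listed genes, in 13 windows.
Fabp7, chr10:57784673-57784922, plus strand: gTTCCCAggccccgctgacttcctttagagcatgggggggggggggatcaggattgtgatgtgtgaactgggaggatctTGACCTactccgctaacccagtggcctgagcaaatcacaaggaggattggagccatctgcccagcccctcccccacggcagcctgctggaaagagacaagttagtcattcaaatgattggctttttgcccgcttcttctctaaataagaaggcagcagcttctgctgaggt
Acsbg1, chr9:54661886-54662135, minus strand: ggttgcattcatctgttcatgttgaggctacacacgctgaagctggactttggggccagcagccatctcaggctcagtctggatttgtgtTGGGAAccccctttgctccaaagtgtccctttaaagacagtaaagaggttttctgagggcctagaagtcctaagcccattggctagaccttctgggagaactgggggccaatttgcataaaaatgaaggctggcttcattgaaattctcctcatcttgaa
Scp2, chr4:108118548-108118797, minus strand: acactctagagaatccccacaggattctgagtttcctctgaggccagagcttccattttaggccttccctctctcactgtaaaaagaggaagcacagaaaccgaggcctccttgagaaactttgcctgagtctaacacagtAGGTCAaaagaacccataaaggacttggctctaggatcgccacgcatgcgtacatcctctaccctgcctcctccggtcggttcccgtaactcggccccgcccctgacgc
Abhd4, chr14:54253879-54254128, plus strand: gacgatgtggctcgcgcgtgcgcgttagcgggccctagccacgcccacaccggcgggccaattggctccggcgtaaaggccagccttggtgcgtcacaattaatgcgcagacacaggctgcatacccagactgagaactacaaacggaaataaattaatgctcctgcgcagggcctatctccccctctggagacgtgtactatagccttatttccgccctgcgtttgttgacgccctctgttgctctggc
The 3 motifs were TGGGAA, the core bound by the Notch effector RBPJ, AGGTCA, a half-site of nuclear receptors, and CCGGAA, an ETS factor core. Each was searched on both strands. The window of Fabp7 holds TGGGAA on the opposite strand, at 249 to 244 bases before the start, and AGGTCA on the opposite strand at 171 to 166. The window of Acsbg1 holds TGGGAA on its own strand at 160 to 155 bases before the start. Scp2 has AGGTCA on its own strand at 109 to 104. No match to the 3 motifs lies in either window of Abhd4. CCGGAA is in none of the 13 windows. Among all 32851 windows of the same length in the RefSeq table, 21.6% hold TGGGAA, 14.0% AGGTCA and 12.03% CCGGAA. A motif this common is a description of the sequence. Outside the called genes, Acsl1, not measured here, has TGGGAA on its own strand at 205 to 200 and 170 to 165 bases before its second start, and Acsl6 has AGGTCA at 2 places of its first window, on the opposite strand.

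Fabp7, the brain type fatty acid binding protein, carries long-chain polyunsaturated fatty acids and is a standard marker of radial glia. Its log2 values were 12.68 and 12.62 on control 1 and control 2, against 10.97 and 11.13 on mutant 1 and mutant 2. Both mutant arrays lay far under both controls, and the gap between the groups was 1.49. The difference was -1.60 ± 0.07 (SE; 95% interval -1.79 to -1.42; limma adjusted p = 0.00538). It was -1.56 between the 2 female samples and -1.65 between the 2 male samples.

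Fabp5, the epidermal type, is found in many tissues and in the developing brain in neurons and glia alike. It stood at 11.07 and 11.09 in controls and at 11.10 and 11.17 in mutants. The 4 values lay close together, and the groups were separated by only 0.013. The difference of 0.06 ± 0.06 (SE) was not called (limma adjusted p = 0.752), and its interval ran from -0.09 to 0.20. A second feature for Fabp5, with the lower mean, differed by 0.05.

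Fabp3, the heart type, is known in brain mainly from neurons. It was measured at 10.08 and 10.17 in controls and 10.26 and 10.31 in mutants, with a gap of 0.09 between the groups. The difference was 0.16 ± 0.06 (SE; interval 0.0010 to 0.31; limma adjusted p = 0.370), and the second feature for Fabp3 differed by 0.15. RefSeq lists a pseudogene named Fabp3-ps1. The 2 features of Fabp3, and those of Fabp5, may share probes or match such a copy, so the second features are not counted as separate measurements.

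The 3 binding proteins thus did not move alike. Set against Fabp5 on the same array, with the controls centred on 0, Fabp7 stood at -1.70 on mutant 1 and -1.61 on mutant 2, while the controls lay at 0.04 and -0.04. Set against Fabp3, it stood at -1.82 and -1.70, with the controls at 0.08 and -0.08. The intervals of Fabp7 and of the other 2 do not meet.

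Acsbg1, the bubblegum type acyl-CoA synthetase, activates long and very long-chain fatty acids and is used as a marker of the astrocyte lineage. It was at 8.75 and 8.82 in controls and at 7.18 and 6.998 in mutants, so that both mutant arrays lay well under the controls. The difference was -1.70 ± 0.08 (SE; 95% interval -1.90 to -1.50; limma adjusted p = 0.00538). It differed by -1.76 between the female samples and by -1.64 between the male samples. Whereas Fabp7 was lowest on mutant 1, Acsbg1 was lowest on mutant 2.

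Acsl4 prefers arachidonic acid and related polyunsaturated fatty acids, and its RefSeq promoter lies on the X chromosome. Replicates were tight, at 8.77 and 8.79 in controls and 9.01 and 8.996 in mutants. Both mutant arrays were higher, by a gap of 0.21, and the difference was 0.23 ± 0.05 (SE; 95% interval 0.09 to 0.36). At an unadjusted p of 0.00751 in limma it missed the threshold over all genes (adjusted p = 0.186). The female samples differed by 0.23 and the male samples by 0.22.

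Acsl6, a long-chain acyl-CoA synthetase of neurons known for its part in brain docosahexaenoic acid, stood at 8.92 and 8.95 in controls and at 8.95 and 9.07 in mutants. Mutant 1 lay next to control 2, only 6e-05 above it. The difference of 0.07 ± 0.07 (SE; interval -0.09 to 0.24) did not pass in limma (adjusted p = 0.701). Without a call, the groups of Fabp5, Fabp3, Acsl4 and Acsl6 still did not overlap, with both mutants higher. The same held for 22.8% of all genes tested, and 44.3% did not overlap in either direction, so that ordering says little about these 4. Relative to Acsl4 on the same array, Acsbg1 stood at -1.84 on mutant 1 and -2.01 on mutant 2, with the controls at -0.03 and 0.03. Relative to Acsl6 it stood at -1.62 and -1.93, with the controls at -0.02 and 0.02.

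Scp2 encodes sterol carrier protein and a peroxisomal thiolase, which transfer lipids between membranes and shorten branched acyl chains. Its control values were both 9.36, and the mutants were at 8.70 and 8.78. Both mutant arrays were lower, and the difference was -0.62 ± 0.06 (SE; 95% interval -0.77 to -0.47; limma adjusted p = 0.0254). The female samples differed by -0.58 and the male samples by -0.66.

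Abhd4, a serine hydrolase that removes acyl chains from N-acyl phosphatidylethanolamines on the way to N-acylethanolamines, was at 8.74 and 8.75 in controls. Mutant 1 was at 7.44 and mutant 2 at 7.75, which made Abhd4 the called member with the widest spread between mutants. The difference was -1.15 ± 0.11 (SE; 95% interval -1.43 to -0.87; limma adjusted p = 0.0254), with -0.99 between the female samples and -1.32 between the male samples.

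**Figure D2:**
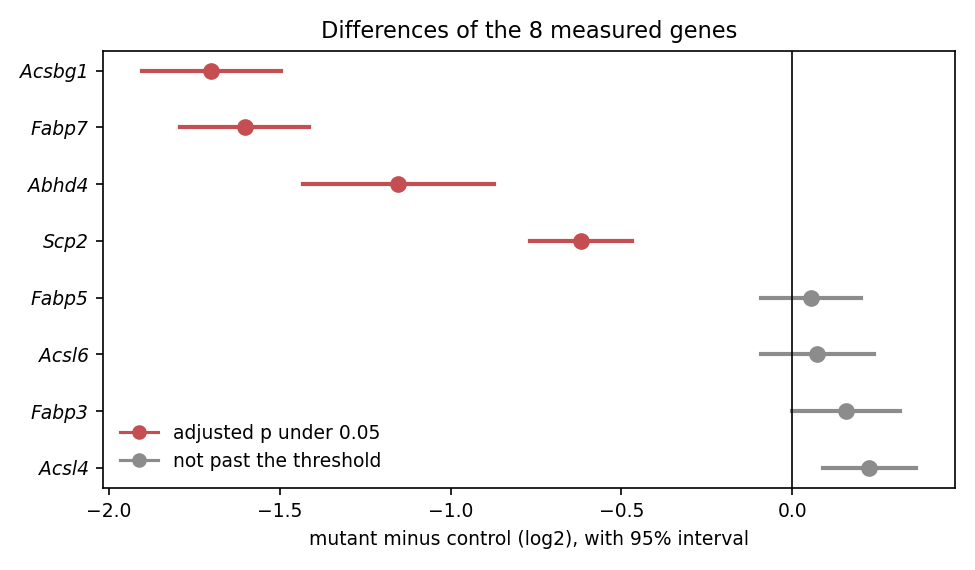
Difference between mutants and controls (horizontal axis, log2, mutant minus control) for the 8 measured genes, with the 95% interval from limma. Red marks genes called over all genes tested and grey the others. Acsbg1 and Fabp7 lie near -1.70 and -1.60, Abhd4 and Scp2 between them and 0, and the 4 others just above 0.

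The calls of Abhd4 and Scp2 were lost in several fits, while their differences changed little. Without control 1, 2 members were called, and Abhd4 differed by -1.16 (limma adjusted p = 0.153) and Scp2 by -0.62 (adjusted p = 0.201). Without control 2, 2 members were called, and they differed by -1.15 (limma adjusted p = 0.145) and -0.62 (adjusted p = 0.180). With embryo sex as a covariate the adjusted p in limma was 0.0540 for Abhd4 and 0.0683 for Scp2, and without the filter on dim genes it was 0.0713 and 0.0724. Of 13 other fits, 12 called Fabp7 and Acsbg1, and 8 called Abhd4 and Scp2. No member was called in the fit to all features, named or not (adjusted p = 0.178 for Fabp7 and Acsbg1, 0.269 for Abhd4 and Scp2). In each of these fits the differences kept their direction.

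The genes whose 4 arrays ran most like a member were found by the root mean square distance between log2 profiles, each centred on its own mean. Only genes tested were searched, and predicted genes without an assigned name were skipped. Nearest to Fabp7 were Aldoc, a glycolytic aldolase of astrocytes (distance 0.049), the glutamate transporter gene Slc1a3 (0.074), the folate enzyme gene Aldh1l1 (0.085), the proteoglycan gene Bcan (0.086) and the ETS factor Etv5 (0.124). Nearest to Acsbg1 were Slc1a3 (0.120), Fabp7 (0.138), Aldoc (0.138), the peptide transporter gene Slc15a2 (0.162) and Aldh1l1 (0.172). Abhd4 had other neighbours: the cyclin gene Ccnd2 (0.012), the thyroid hormone transporter gene Slco1c1 (0.031), the hyaluronan synthase gene Has2 (0.040), the endothelin receptor gene Ednrb (0.040) and Ppp1r3c, a glycogen-targeting phosphatase subunit (0.048). With 4 arrays, a profile is little more than the size of the difference and the order of the mutants. Between the groups, those 5 neighbours of Abhd4 differed by -1.09 to -1.18, close to its own -1.15.

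Some markers of glial cells and their precursors fell as these members did, where 1.01% of all genes tested were called lower, and others were not called. Of 13 astrocyte and radial glia markers tested, from a list of 14 that leaves out the members, limma called 7 lower and none higher. The median difference of these markers was -0.75. Slc1a3, Aldoc and Aldh1l1 fell by 1.53, 1.53 and 1.44 on the log2 scale and Tnc, a matrix protein gene, fell by 2.21, while Vim and Gfap, intermediate filament genes, differed by -0.31 and 0.04 without a call. The summed linear level of the list was 15783 to 15872 in controls and 8438 to 9606 in mutants, 57.0% of the control mean. All 6 oligodendrocyte precursor markers were tested and 3 were called lower. The sum of the 6 was 1440 to 1451 in controls against 512 in both mutants. Cspg4, on that list, differed by 0.01. Of 7 microglia markers tested 1, Fcrls, fell and 6 were not called, with a sum of 1301 to 1325 in controls and 1071 to 1125 in mutants. Fcrls passed the filter on dim genes (mean log2 6.16) through its controls, at 6.68 and 6.78, with the mutants at 6.08 and 6.06. So did Gpr17, a called oligodendrocyte precursor marker, at 6.65 and 6.93 in controls and 5.79 and 5.89 in mutants.

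In the other 7 marker lists no gene was called. The sum of 6 intermediate progenitor markers was 2242 to 2243 in controls and 1822 to 2105 in mutants. The sum of 11 postmitotic neuron markers was 32224 to 33000 in controls and 34457 to 35274 in mutants. Of 10 endothelial markers, 9 were tested, and the sum was 2563 to 2567 in controls and 2411 to 2732 in mutants. The choroid plexus sum was 371 and 859 in controls and 360 and 409 in mutants, 62.5% of the control mean, with control 2 apart. The mutant sum was 88.7% of the control mean for erythroid, 98.4% for interneuron and 100.3% for pericyte, fibroblast and meninges markers. No marker is listed at 0 on any array. The dimmest was Aqp4 in the astrocyte list (mean 6.15) and Aif1 in the microglia list (mean 5.71). The part of these cell types in the differences of Fabp7, Acsbg1, Abhd4 and Scp2 was not tested.

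**Figure D3:**
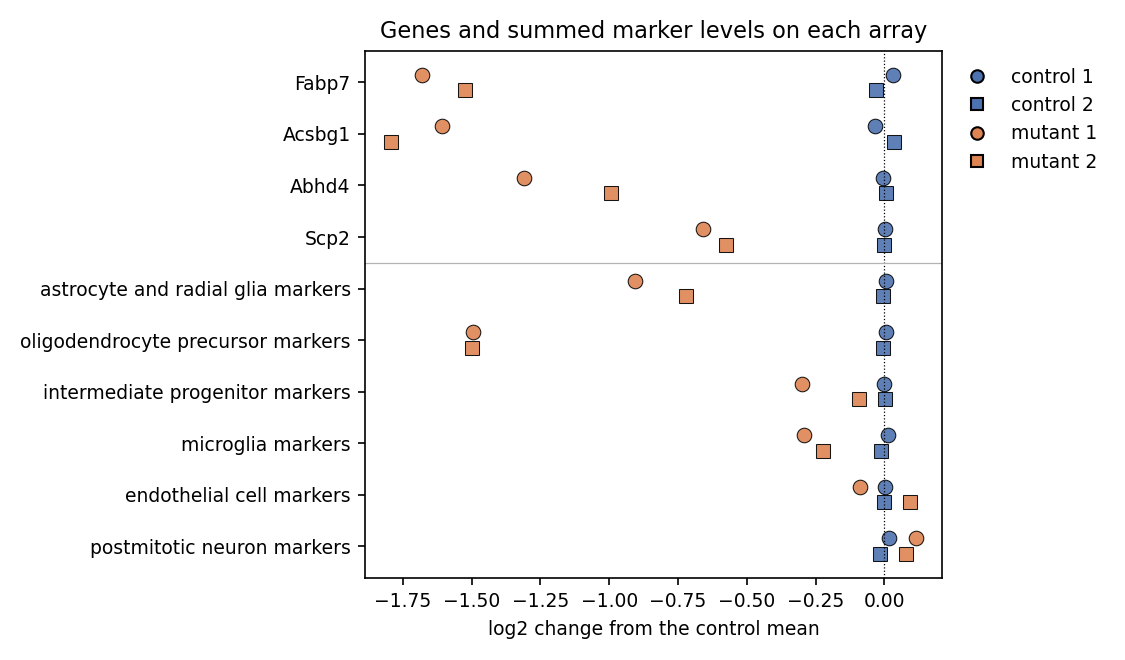
Log2 change from the control mean on each array (horizontal axis) for the 4 called members, above the line, and for the summed linear level of 6 marker lists, below it. Circles are replicate 1 and squares replicate 2, blue control and orange mutant. The members and the oligodendrocyte precursor, astrocyte and radial glia sums lie to the left on both mutant arrays. The microglia sum, at -0.29 and -0.22, and the intermediate progenitor sum, at -0.30 and -0.09, also lie to the left there. The postmitotic neuron and endothelial sums lie between -0.09 and 0.11 on the mutant arrays.

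The rest of fatty acid metabolism was taken from 11 lists of 208 genes without the members. Of these, 159 genes were tested, and limma called 3 lower and none higher, where 1.01% of all genes were called lower. Those called were Thrsp, Crot and Decr1. Of the 159, 80 had a lower and 79 a higher mean in mutants. A gene without a call is not thereby shown to be unchanged. Thrsp, thyroid hormone responsive protein, which promotes lipogenesis, went from 8.11 and 8.19 in controls to 7.31 and 7.20 in mutants (1.87-fold lower, limma adjusted p = 0.0185). Crot, the peroxisomal carnitine octanoyltransferase, went from 9.35 and 9.24 to 8.75 and 8.66 (1.503-fold lower, adjusted p = 0.0388 in limma). Decr1, a mitochondrial dienoyl-CoA reductase, went from 7.60 and 7.62 to 7.07 and 7.14 (1.42-fold lower, adjusted p = 0.0342 in limma). None of the 3 was called without control 1 or without control 2 (limma adjusted p between 0.117 and 0.259). Without mutant 1 there were 7 genes called lower and without mutant 2 there were 16, with 1 higher.

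Genes of mitochondrial fatty acid oxidation leaned one way. Of 20 tested, 19 had a lower mean in mutants, where 47.7% of all genes did, and 15 had both mutants under both controls, where 21.4% of all genes did. The median difference was -0.19 and their summed level in mutants was 88.5% of that in controls. Decr1 alone was called. Cpt1a, the rate-limiting transferase that brings acyl groups into mitochondria, was named after its values were seen. It was at 8.34 and 8.36 in controls and 7.47 and 7.75 in mutants (difference -0.74, limma adjusted p = 0.0521). Acadl, also named after its values were seen, came slightly closer to the threshold (difference -0.48, limma adjusted p = 0.0517). Without mutant 1 the median of the list was -0.12. The single gene with a higher mean was Acadvl, an acyl-CoA dehydrogenase, also named after its value was seen (difference 0.04). Such a lean was not particular to this list. Of the markers tested, 12 of 13 for astrocytes and radial glia, 6 of 6 for intermediate progenitors and 7 of 7 for microglia had a lower mean. For postmitotic neurons 2 of 11 did, and for endothelial cells 3 of 9.

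In the peroxisomal list Crot was the 1 called gene of 15 tested, and the median difference was -0.03. The list of fatty acid synthesis, elongation and desaturation had 26 genes tested, Thrsp called, and a median of 0.02. The 21 acyltransferases of phospholipid and triglyceride synthesis had a median of 0.01 with none called. Mboat1 (0.19 ± 0.06, SE) and Gpat3 (0.18 ± 0.06) came closest in limma, with adjusted p of 0.264 and 0.293.

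No tested relative of the members was called on all 4 arrays. With 1.01% of all genes called lower, lists this short were unlikely to hold a call. Of the other acyl-CoA synthetases and fatty acid transport proteins, 11 of 19 were bright enough to be tested and none was called (median -0.03). The mitochondrial acetyl-CoA synthetase gene Acss1 was at 7.83 and 7.79 in controls and 7.58 and 7.48 in mutants (limma adjusted p = 0.165), and Slc27a5 differed by 0.33 (limma adjusted p = 0.253), or 0.20 without control 1. Of the other fatty acid and retinoid binding proteins only Crabp1 and Crabp2, retinoic acid carriers, were bright enough. Crabp1 was at 7.68 and 7.78 in controls and at 7.33 and 8.03 in mutants, with the mutants on either side of the controls (difference -0.05, limma adjusted p = 0.961). Without mutant 2 it differed by -0.40 and was called (limma adjusted p = 0.0316). Crabp2 differed by -0.01 (limma adjusted p = 0.980).

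Among 17 acyl-CoA and lipid carriers, none was called and the median was 0.03. Dbi, the acyl-CoA binding protein, was lower on both mutant arrays, at 10.81 and 10.65 in controls against 10.18 and 10.38 in mutants, with a difference of -0.45 ± 0.10 (SE; limma adjusted p = 0.143). Osbpl1a, an oxysterol binding protein relative, differed by 0.27 (limma adjusted p = 0.218). Without mutant 2 both were called, at -0.55 and 0.35 (limma adjusted p = 0.0176 and 0.0425). Among 9 acyl-CoA thioesterases, which undo the work of the synthetases, none was called. Acot1 was at 8.80 and 8.75 in controls and 7.78 and 8.19 in mutants (difference -0.79 ± 0.14, SE; limma adjusted p = 0.0893), and Acot9 differed by 0.18 (limma adjusted p = 0.405). Acot1 was called without mutant 1 (-0.58) and without mutant 2 (-0.99), with limma adjusted p of 0.0169 and 0.00147.

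On the uptake and lipid droplet list, 15 genes were tested and none called, with a median of 0.03. Mfsd2a, the transporter of lysophosphatidylcholine with docosahexaenoic acid at the brain endothelium, was at 9.31 and 9.30 in controls and 8.82 and 9.08 in mutants (limma adjusted p = 0.218), and was called without mutant 2 (-0.49, limma adjusted p = 0.0118). Lpl, lipoprotein lipase, was at 9.92 and 9.84 in controls and 10.07 and 10.16 in mutants (limma adjusted p = 0.221). The list of N-acylethanolamine and endocannabinoid enzymes and receptors, which is wider than the pathway of Abhd4, had 14 genes tested. None was called, and the median was 0.01. Naaa, the acid amidase that degrades N-acylethanolamines, was at 8.17 and 8.33 in controls and 7.53 and 7.70 in mutants, a difference of -0.63 ± 0.09 (SE) that missed the threshold (limma adjusted p = 0.0566). It was called without mutant 1 (-0.54, limma adjusted p = 0.0383) and without mutant 2 (-0.72, limma adjusted p = 0.00716). Pla2g4e, a calcium-dependent acyltransferase that makes the lipids Abhd4 acts on, differed by 0.63 ± 0.19 (SE; limma adjusted p = 0.273), and by 0.34 to 0.91 when 1 array was left out. Of 9 nuclear receptors and partners that sense fatty acids or retinoids none was called (median 0.02). Rara and Hnf4a, with the smallest p among them, differed by 0.18 and 0.15 (limma adjusted p = 0.458 and 0.534), and by 0.069 to 0.28 and 0.067 to 0.23 when 1 array was left out.

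**Figure D4:**
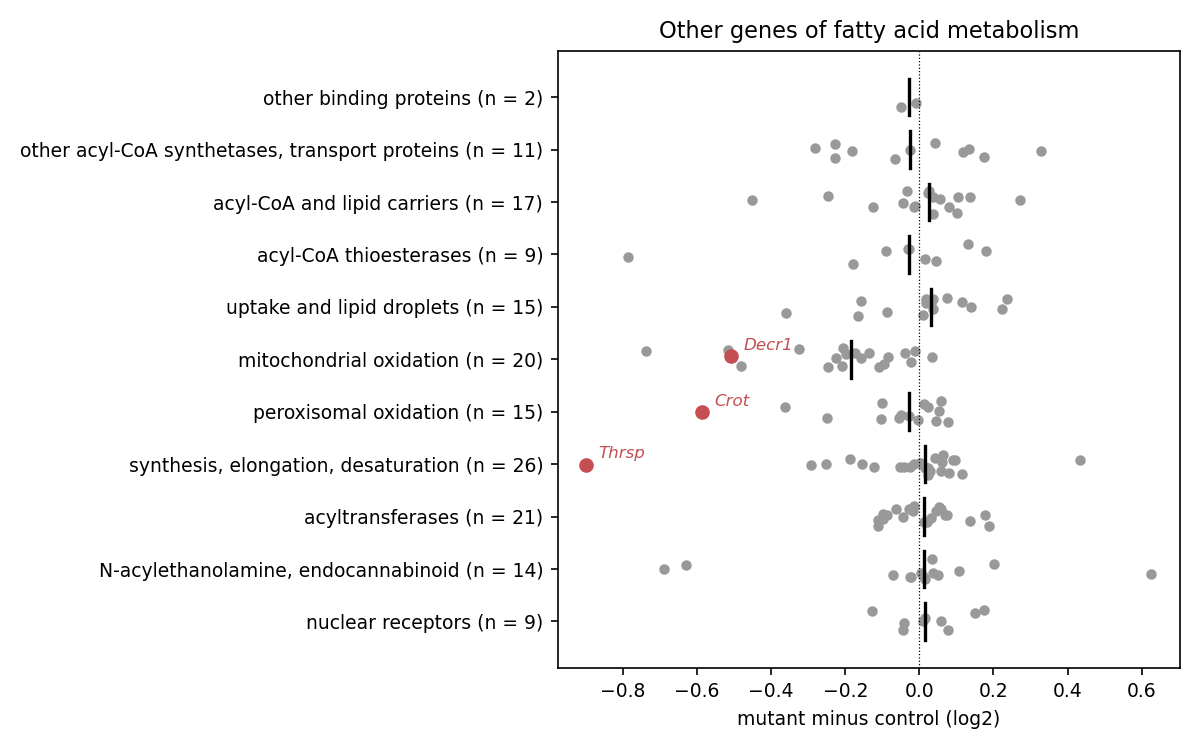
Difference between mutants and controls (horizontal axis, log2) for each tested gene of 11 lists of fatty acid metabolism that leave out the members. Points are genes, red where called, black bars list medians, and n is the number tested. Thrsp, Crot and Decr1 are the 3 called genes, and the bar of mitochondrial oxidation, at -0.19, lies farthest from 0.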

How the data were processed

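Biotin-labelled RNA from 4 samples was hybridised to single-colour whole-transcript arrays, per the labels' protocols. The authors deposited log2 expression values. The submitters' processing notes name RMA, which corrects background, quantile-normalizes arrays and summarises probes, so folds of dim genes are compressed and a change common to most genes is not seen. Its version, the build and any filter were not stated in the labels. That the scale is log2 was inferred from the value range.

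Of 35557 features, 21789 carry 1 symbol in the platform annotation, 1621 several, and 12147 are not listed. Symbols were updated by Entrez identifier through RefSeq (GRCm38.p6) for 21698. The brightest feature per gene was kept (19938 genes), genes with a mean under the 30th percentile (log2 6.16) were left out, and 13956 were tested. The test was lmFit and eBayes of limma 3.58.1 (R 4.3.3) without covariates. It was also run on data simulated from its own fitted spread. Those data hold no array, sex or sample effects, so that run does not check for them. The main fit had 2 residual degrees of freedom and a prior of 3.31. The number of arrays limits the precision, and detection flags were not used here.

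Members and lists were chosen with earlier results of these data known. Named genes are the members, the 5 nearest profiles of Fabp7, Acsbg1 and Abhd4, and the ends of each marker list. In each lipid list they are the called genes, up to 4 by smallest p in each direction. Where none was called, they are the 2 with the smallest p. Some other genes, among them Vim, Tbr1, Bcl11b, Gpr17, Cpt1a and Acadl, were named outside this rule. Alternatives changed the filter, the feature choice, the scaling, the variance model, the covariates and the samples. Deviations from the group means of same-numbered arrays correlated at -0.16. With 2 arrays a group, the crossed numbers necessarily give 0.16, and they follow embryo sex. Whether the numbers pair the samples therefore cannot be told.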

Additional observations from a re-analysis of the deposited data

Results flagged for a closer look

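Each group held 1 female and 1 male sample. In the following genes the difference of the female samples and that of the male samples (mutant minus control, log2) had opposite signs. With 1 sample per sex and group the difference between the sexes was not tested. Only the members, the genes picked by rule from each lipid list and the ends of each marker list were screened. No member had opposite signs. Of all 159 lipid list genes tested, 75 had opposite signs. Of the named lipid genes, Crabp1 differed by 0.348 in females and -0.448 in males, Crabp2 by -0.0983 and 0.0827, and Hnf4a by -0.0033 and 0.302. Of the glial and progenitor markers, Gfap differed by 0.289 in females and -0.213 in males, Cspg4 by 0.0835 and -0.0632, and Neurog2 by 0.185 and -0.209. Of the neuronal markers, Nefl differed by -0.117 in females and 0.0232 in males, and Sst by 0.363 and -1.22. Of the vascular and blood markers, Kdr differed by 0.0372 in females and -0.2 in males, Esam by 0.129 and -0.00171, and Hbb-y by 0.204 and -0.294. Tyrobp, a microglia marker, differed by -0.131 in females and 0.12 in males. Ttr differed by 0.494 in females and -2.65 in males.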

How the results depend on the processing

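With 2 arrays a group, counts of calls moved with the arrays and the settings, and the cause was not tested. The number of members called lower was 4. It was 2 without the filter on dim genes or with embryo sex as a covariate, 0 with every feature tested, and 2 to 4 leaving out 1 array. A group left with 1 array is assumed to vary like the other. Members called higher stayed at 0 in each fit, where at an unadjusted p under 0.05 limma has Acsl4 and Fabp3. Lipid list genes called lower, 3 at first, were 0 without the filter, with every feature or with sex, 5 under the stricter filter, 7 with a trend, and 0 to 16 leaving out 1 array, with 0 to 1 higher. Marker genes called lower, 11 at first, were 5 without the filter or with sex, 0 with every feature, and 4 to 23 leaving out 1 array, with 0 to 1 higher. Over all genes, 141 were called lower and 2 higher. Lower calls were 15 without the filter, 0 with every feature, 217 with a trend and 17 with sex, and 9 to 731 leaving out 1 array. Higher calls were 0 without the filter, with every feature or with sex, 11 under the stricter filter, 4 with arrays centred on their medians and 21 with a trend, and 0 to 150 leaving out 1 array.

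With the replicate block, 4 members, 3 lipid list genes and 113 genes in all were called lower, and 3 genes were higher. Of the 3 lipid calls, Thrsp and Crot were shared, Decr1 was lost (limma adjusted p = 0.0583) and Naaa was gained (adjusted p = 0.0450). Crossed replicate numbers as a block, added after seeing the data and the same split as sex, gave 2 members, 0 lipid genes, 5 markers and 17 genes lower, with 0 higher.

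Some small differences changed sign. Crabp2 was 0.0044, Neurog2 0.00025 and Tyrobp 0.0066 with arrays centred, and Cspg4 was -0.012 after further quantile normalization. Leaving out 1 array, differences ran from -0.40 to 0.30 for Crabp1, -0.10 to 0.082 for Crabp2, -0.11 to 0.19 for Gfap, -0.045 to 0.065 for Cspg4, -0.15 to 0.12 for Neurog2, -0.13 to 0.036 for Nefl, -1.07 to 0.21 for Sst, -0.25 to 0.086 for Kdr, -0.0054 to 0.13 for Esam, -0.11 to 0.10 for Tyrobp, -1.12 to 0.013 for Dcn, -0.36 to 0.27 for Hbb-y and -2.32 to 0.16 for Ttr.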

Other observations

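The marker lists ranged widely within themselves. Among astrocyte and radial glia markers the differences ran from -2.21 for Tnc, a matrix protein (limma adjusted p = 0.0135; 0.0770 without control 1 and 0.0570 without control 2), to 0.04 for Gfap. Oligodendrocyte precursor markers ran from -2.64 for Pdgfra (limma adjusted p = 0.00934) to 0.01 for the proteoglycan gene Cspg4. Microglia markers ran from -0.66 for Fcrls (limma adjusted p = 0.0254; 0.153 without control 1 and 0.164 without control 2) to -0.01 for Tyrobp. Intermediate progenitor markers ran from -0.64 for Neurod4 to -0.01 for Neurog2, and neither passed the test. Neurod4 differed by -0.29 without mutant 1 and by -0.99 without mutant 2, where it was called (limma adjusted p = 0.00407). Postmitotic neuron markers ran from -0.05 for Nefl to 0.17 for Tubb3, and interneuron markers from -0.43 for Sst to 0.30 for Npy. Endothelial markers ran from -0.08 for Kdr to 0.06 for Esam, and pericyte, fibroblast and meninges markers from -0.55 for Dcn to 0.23 for Kcnj8. Alas2 and Hbb-y, the 2 erythroid markers tested, differed by -0.23 and -0.04, and the choroid plexus markers Ttr and Folr1 by -1.08 and -0.12. Beyond Tnc, Pdgfra and Fcrls, none of the genes named here passed in limma on all 4 arrays. Without mutant 2, Sst (-1.07), Npy (0.44) and Dcn (-1.12) were called (limma adjusted p = 0.00582, 0.0212 and 0.000947).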
